A study of Mus musculus with 16 samples.

Results

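GFP+ and GFP- cells of mice that smelled octanoic acid are compared here. The samples were chosen by title, as the sorted cells of the odor replicates 1 to 4, which gives 8 of the 16 arrays of the series: 4 of GFP+ cells and 4 of GFP- cells. All mice, also those that received vehicle, carried the S100a5-tauGFP reporter, were 7 to 12 weeks old and of both sexes, and were housed singly in clean-air chambers (3.1 L/min) for 40 h. After 26 h the odor group received octanoic acid, a fatty acid odorant, for 10 s every 20 min, and the vehicle group received filtered air. Olfactory mucosa of 3 mice was pooled for each replicate, dissociated and sorted by GFP fluorescence, and since 24 mice in pools of 3 served 16 arrays, both samples of a replicate number are taken to come from the same animals. The gate is set by a reporter of 1 gene, and GFP- cells are all remaining sorted cells, not a purified type. All 19505 genes with a name on the array were tested, 1091 of them olfactory receptors.

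Olfactory sensory neurons each transcribe 1 of many receptor genes. When an odorant binds, the receptor acts through the G protein subunit Gnal and the adenylyl cyclase Adcy3, cyclic AMP opens a channel that contains Cnga2, and calcium that enters opens the chloride channel Ano2. Repeated activity also changes transcription in these neurons, and S100a5, a calcium-binding protein gene, is among the best known of the genes that rise. The mucosa holds further cells besides mature neurons: basal stem cells, progenitors and young neurons, supporting (sustentacular) cells, microvillous cells, Bowman glands, glia, vessels and blood cells.

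Values are log2 signals as deposited, and a difference is the log2 value of the GFP+ array minus that of the GFP- array of the same pool, given as mean ± SD over 4 pools. As background serves the middle value of the 5222 negative controls over all arrays, 6.20 log2. Their 95th percentile was 10.41, so a level between these values may hold little specific signal. The controls themselves were brighter in GFP+ samples, with medians of 6.24, 6.21, 6.71 and 6.30 log2 on the GFP+ arrays of pools 1 to 4. On the GFP- arrays they were 6.02, 5.93, 5.90 and 5.80. The 1 background does not follow this shift, whose part in small rises near the background was not tested. A fold is written "at least" where the mean of the dimmer sorted group was below background or exceeded it by no more than 1 SD, and no fold is given where both did so. A gene is called higher or lower where limma's adjusted p (Benjamini-Hochberg over all genes) was under 0.05. Arrays have no read depth, and precision rests on 4 pools a treatment, whose spread the fit shares over both treatments. Among the odor arrays the GFP+ array of pool 3 had the lowest correlation with its group (0.976), and it also carried the most signal of supporting-cell genes, as given below. Counts without pool 3 are therefore given as well. The marker of the labelled tissue was bright: Omp, the olfactory marker protein of mature neurons, read 18.89, 18.89, 18.78 and 18.80 log2 on the GFP+ arrays of pools 1 to 4 and 18.69, 18.65, 18.77 and 18.58 on the GFP- arrays. Omp was thus bright in both sorted samples, and the difference of 0.17 ± 0.10 log2 did not pass (limma adjusted p = 0.445); after centring each array on its median it was 0.47 and passed (adjusted p = 0.02).

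More genes were lower than higher in GFP+ cells, and the falls were larger. 1221 genes (6.26% of those tested) were higher and 2126 (10.9%) lower. Of the 3347 called genes 3254 had the same sign in all 4 pools. The GFP+ arrays all lay above the GFP- arrays for 7.25% of genes and all below for 10.7%. With vehicle, the same test called 1138 genes (5.83%) higher and 1868 (9.58%) lower. For 357 of the higher and 402 of the lower genes both sorted groups lay at the background, where the negative controls too were brighter on GFP+ arrays. Outside the receptors, 1 gene exceeded a 4-fold rise and 43 a 2-fold rise, whereas 480 genes were more than 4-fold lower. In bulk sorted samples a lower signal can come from fewer cells of a type or from less RNA per cell, and the arrays cannot tell these apart. Without pool 3, 867 genes (4.45%) were higher and 1895 (9.72%) lower, of which 705 and 1793 were among the genes called with all pools. Without pool 4 the count of higher genes was 621, of which 585 were among the 1221. Across all genes the median difference was 0.11 log2 with the values as they stand and became 0.42 after centring each array on its median, 0.15 after quantile normalization and 0.19 after centring on the receptors. The counts became 7791 higher and 1715 lower, 2587 and 2026, and 689 and 1576, in the same order. Fitted on the odor pools alone, without the spread of the vehicle pools, 688 genes were higher and 1800 lower. Calls of small rises therefore depend on the scaling, and list medians below are to be read against 0.11.

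**Figure D1:**
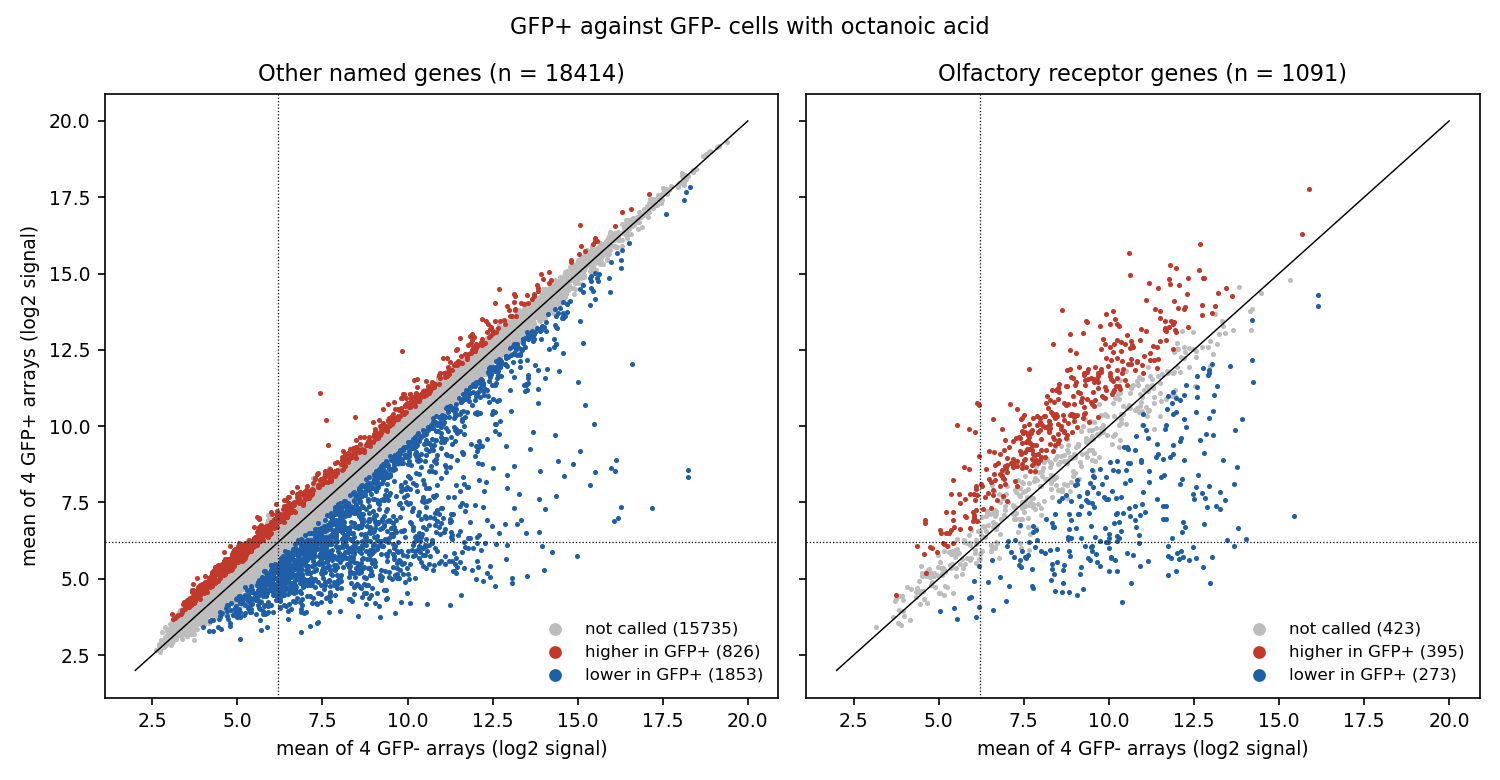
Mean log2 signal of the 4 GFP- arrays (x axis) and of the 4 GFP+ arrays (y axis) for each named gene, with receptors in a panel of their own; colours mark limma calls, the solid line is equality and dotted lines mark the background of 6.20 log2. Among other genes most large departures lie below the line, while receptors spread to both sides.

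Genes known to follow the activity of olfactory neurons were higher in GFP+ cells. Of 10 such genes 8 were higher, S100a5 among them, against 6.26% of all genes, and none lower, with a median of 1.16 log2. The same counts were found without any single pool, except that Rasgrp4 was called lower without pool 1 (-1.47 log2). The median was 1.22 to 1.46 under the 3 scalings. S100a5 comes first because its reporter set the gate, which makes its rise a check of the sort and no independent finding. It read 17.10, 16.49, 16.46 and 16.34 log2 on the GFP+ arrays of pools 1 to 4, and 15.06, 14.79, 14.91 and 15.52 on the GFP- arrays. The groups did not overlap, the gap was narrowest in pool 4, and the difference was 1.53 ± 0.52 log2 (2.89-fold, limma adjusted p = 0.000139). The S100a5 signal was thus also bright in the GFP- samples, whose purity was not tested.

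Lrrc3b, a leucine-rich repeat membrane protein gene, read 14.80, 14.14, 13.82 and 15.24 log2 in GFP+ cells against 12.46, 12.58, 12.14 and 13.52 in GFP- cells. Every GFP+ array stood above every GFP- array, by 3.54-fold on average (limma adjusted p = 1.23e-05). Pcdh10, an adhesion molecule of axons, read 11.08, 10.54, 9.23 and 10.35 against 9.03, 7.86, 8.57 and 8.36. Its difference of 0.66 log2 in pool 3 was the smallest, and without that pool the mean rose from 1.84 to 2.24. Kirrel2, which helps axons of like activity to gather, read 15.36, 14.62, 14.94 and 15.28 against 14.25, 13.58, 14.47 and 14.32, again without overlap. Kcnn2, a calcium-activated potassium channel, gave nearly the same difference in every pool, from 0.92 to 1.33 log2. Sema7a (0.94 ± 0.19) and Epha5 (1.16 ± 0.50), both axonal guidance molecules, were higher too, as was Pcp4l1 (1.48 ± 0.52). The vesicular glutamate transporter Slc17a6 read between 15.31 and 15.57 in GFP+ cells and between 15.12 and 15.41 in GFP- cells, and these ranges overlap. Kirrel3 (-0.26 ± 0.35) and Efna5 (0.08 ± 0.13), known to fall with activity, did not pass.

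Because the reporter follows this gene, the 250 bases before the start of S100a5 are shown. The sequence is from RefSeq, build GRCm38.p6, chr3:90608272-90608521, plus strand, 5′ to 3′. No TGACG, the core letters of the cyclic AMP response element (either strand), was found in this window, so no base is in capitals; 23.4% of the 15691 array genes with a promoter in the table hold one in the same window, and among the activity-dependent genes those of Pcdh10 and Slc17a6 do. The motif was chosen after values were seen, and its absence from 1 window says nothing about the factor.
S100a5: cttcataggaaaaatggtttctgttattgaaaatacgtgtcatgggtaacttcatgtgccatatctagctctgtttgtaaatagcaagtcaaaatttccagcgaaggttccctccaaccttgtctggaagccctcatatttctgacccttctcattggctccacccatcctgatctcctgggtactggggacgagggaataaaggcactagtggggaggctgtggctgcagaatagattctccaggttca

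Beyond this list, the largest rises outside the receptors belonged to genes of varied function. Fxyd2, a regulator of the sodium pump, led by far and was the gene past 4-fold. On GFP+ arrays it read 11.28, 11.19, 9.85 and 12.10 log2, and on GFP- arrays 7.39, 7.53, 7.16 and 7.57, a 12.9-fold difference (limma adjusted p = 1.85e-06). The GFP- values were close together, above the background by little, and pool 3 had the lowest GFP+ value. Kcnmb3, an accessory subunit of BK potassium channels, read 13.92, 12.89, 11.23 and 13.46 against 12.38, 10.95, 10.76 and 12.09. Its ranges overlap because pools differ in level, yet it was higher within each pool (1.33 ± 0.62). Syngr1, a synaptic vesicle protein, varied little, with differences from 1.14 to 1.46 log2. Pcdh8, a protocadherin, rose by 1.32 ± 0.30, Hs3st1, which sulfates heparan chains, by 1.30 ± 0.46, and Rfx4, a transcription factor of the RFX family, by 1.29 ± 0.38. Inpp5f (1.27 ± 0.36), an inositol phosphatase, Adam28 (1.20 ± 0.17), a membrane metalloprotease, and Nsun7 (1.20 ± 0.49) followed. Cidea, a lipid droplet protein, was higher by 1.19 ± 0.66 with 0.30 in pool 3 and 1.09 to 1.76 in the other pools.

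**Figure D2:**
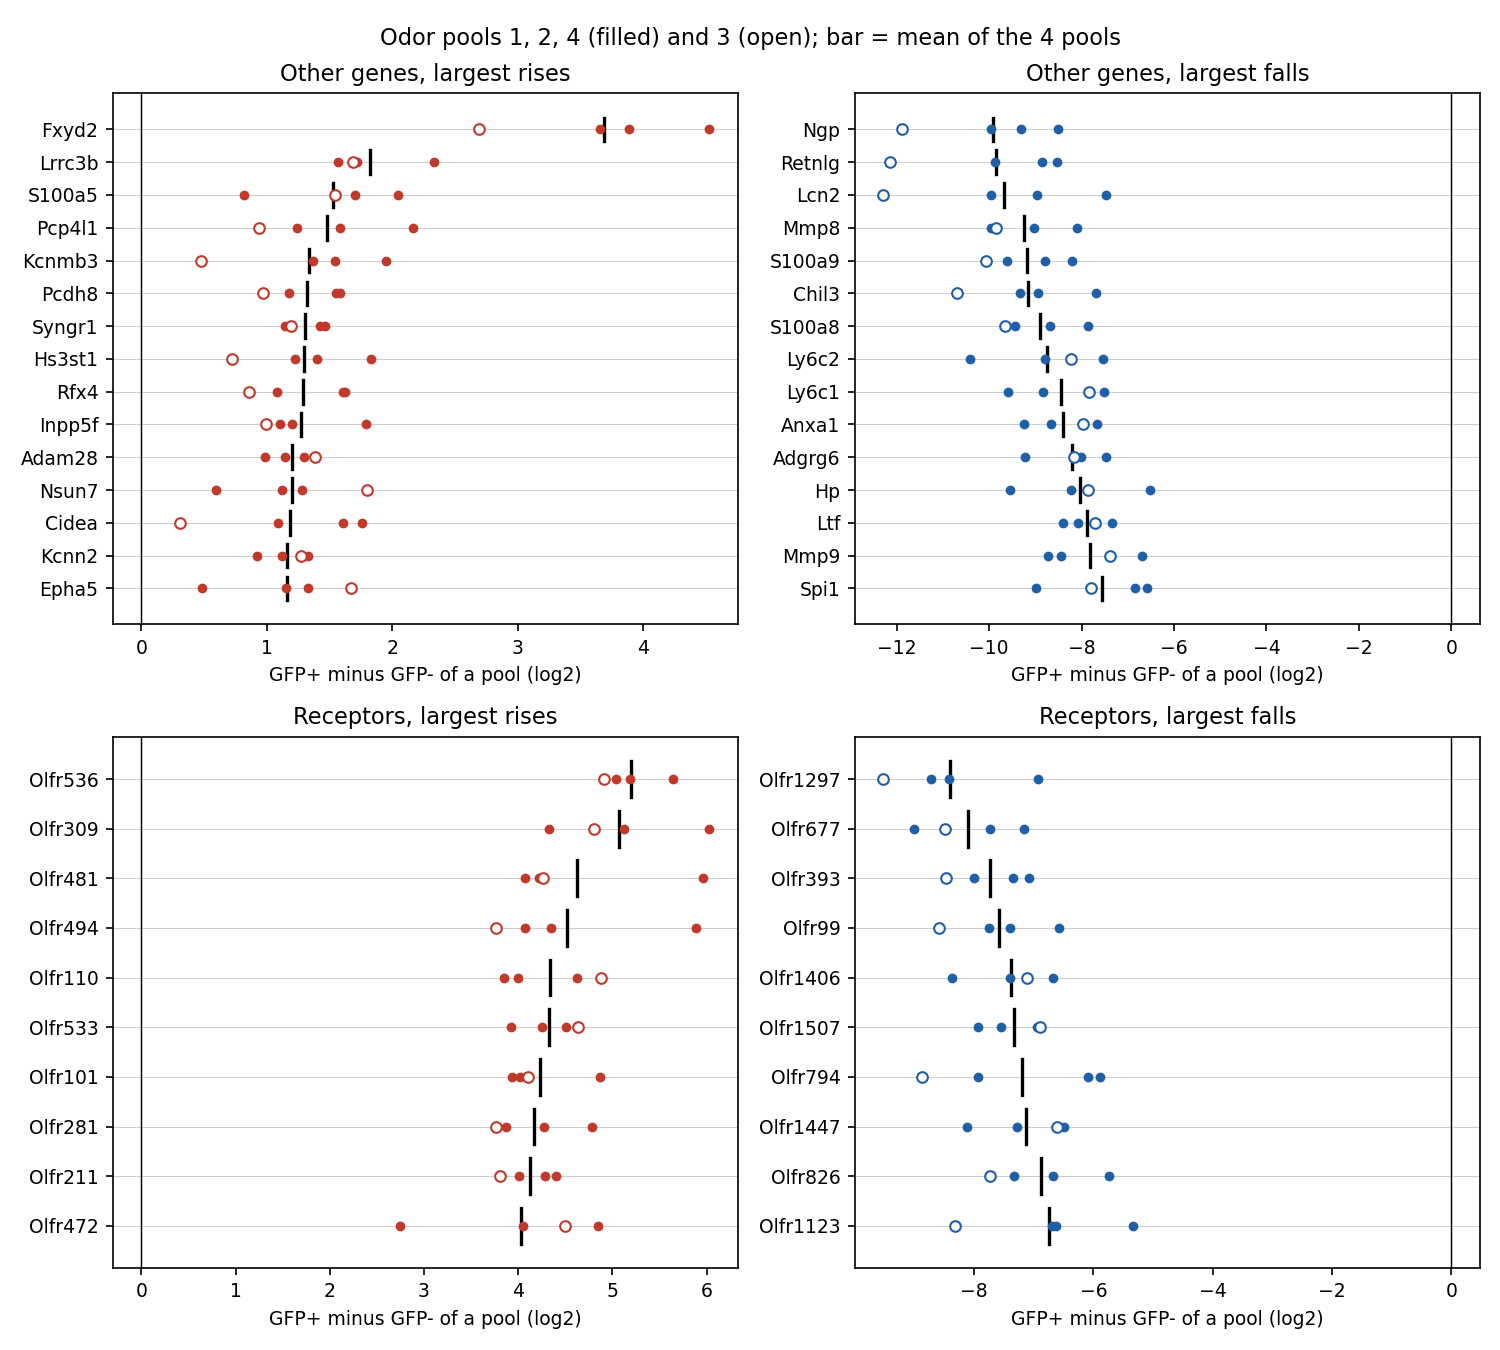
Within-pool differences in log2 units (x axis) of the genes with the largest rises and falls, for receptors and for other genes; each point is 1 odor pool, open for pool 3, and the bar is the mean of 4 pools. For each gene shown all 4 pools lie on the same side of 0, and falls reach -12.29 for Lcn2 while the largest rise outside the receptors reaches 4.53 for Fxyd2.

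Olfactory receptors moved in both directions and more widely than other genes. Among 1091 receptors GFP+ cells had 395 higher and 273 lower, against 6.26% and 10.9% of all genes tested. Without pool 3 the counts were 373 and 240. 136 receptors were more than 4-fold higher and 162 more than 4-fold lower. Differences also varied more between pools, with a median SD of 0.66 log2 for receptors and 0.38 for other genes, and 0.61 against 0.28 when only genes above 10.41 log2 in the brighter group are taken (418 receptors and 4588 other genes). The array names are the older Olfr symbols, and receptors with near-identical copies may share probes, which the files do not resolve.

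Olfr536 read 14.82, 13.59, 12.70 and 14.11 log2 on GFP+ arrays against 9.78, 7.95, 7.79 and 8.92 on GFP- arrays. Levels in both sorted samples followed the pool, highest in pool 1 and lowest in pool 3, while the difference stayed within 4.91 to 5.64. Olfr309 read 15.38, 15.64, 15.72 and 15.90 against 10.26, 9.61, 10.91 and 11.57, also without overlap. Olfr533, at 4.33 ± 0.31, and Olfr211, at 4.13 ± 0.27, had small spreads for receptors. Olfr472 was less even, with 2.74 in pool 4 and 4.05 to 4.85 in the other pools. In Olfr481 pool 2 stood apart at 5.97 log2, with 4.07, 4.26 and 4.22 in the others. The largest rises also included Olfr110 (4.34 ± 0.49), Olfr101 (4.23 ± 0.43), Olfr281 (4.17 ± 0.46) and Olfr494 (4.52 ± 0.94).

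At the other end receptors with strong signal in GFP- cells were near the background in GFP+ cells. Olfr1297 read 8.63, 6.90, 6.25 and 6.41 log2 on GFP+ arrays against 15.56, 15.33, 15.77 and 15.14 on GFP- arrays. Olfr677 read 4.20, 6.12, 4.39 and 4.76 against 13.20, 13.28, 12.87 and 12.49, at least 109-fold lower, and no GFP+ array passed the background. Olfr393 read 5.98, 6.38, 6.11 and 6.80 against 13.98, 13.72, 14.58 and 13.89, at least 201-fold lower. Olfr1507 (at least 114-fold), Olfr1447 (at least 125-fold), Olfr794 (at least 107-fold), Olfr1406 (at least 94.7-fold), Olfr826 (at least 76.8-fold) and Olfr1123 (at least 54.6-fold) were lower as well. Olfr99 was at least 162-fold lower, with GFP- arrays between 12.99 and 14.42. All 10 had the same sign in the 4 pools, which the rule that named them required.

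The cascade from receptor to current differed little between GFP+ and GFP- cells. Of 14 genes on the list 2 were higher and none lower, also without pool 3, against 6.26% and 10.9% of all genes. The median was 0.20 log2 against 0.11 for all genes. After centring arrays on their median 11 were called higher, as were 7791 of all 19505 genes, and after centring on the receptors 1 of the 14. Adcy3 (0.23 ± 0.11), Gnal (0.14 ± 0.12) and Cnga2 (0.29 ± 0.21) did not pass as deposited, and each did after array centring. Ano2 read 17.59, 17.65, 17.57 and 17.59 log2 against 17.07, 17.13, 17.15 and 17.00, a difference of 0.51 ± 0.07 without overlap (limma adjusted p = 0.0214). That call was lost without pool 1 or pool 4 (adjusted p = 0.0684 and 0.0898) and after centring on the receptors. The other called gene, Cnmd, lay at the background in both samples; it encodes chondromodulin, a cartilage glycoprotein that is no part of the cascade, which leaves Ano2 as the 1 cascade gene called.

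Genes that end the response and clear calcium were called in both directions. Of 17 genes 4 were higher and 2 lower, against 6.26% and 10.9% of all genes. Without pool 3 the counts were 2 and 2, and without pool 4 they were 2 and 1. In 7 of the 17 both sorted groups lay at the background, among them 1 of the called genes. Slc8a1, a sodium-calcium exchanger, read 12.43, 12.32, 12.09 and 12.07 log2 on GFP+ arrays against 11.46, 10.79, 11.37 and 11.05 on GFP- arrays, with no overlap and a 2.08-fold difference (limma adjusted p = 0.000453). Pde1c, a calcium-dependent phosphodiesterase of olfactory cilia, was higher by 0.82 ± 0.11. Rgs2, a regulator of G protein signaling, lay under the background on each GFP+ array (3.35 to 3.91) and read 8.39, 9.62, 8.41 and 10.35 in GFP- cells, at least 7.95-fold lower. Rgs2 is also made by leukocytes, whose markers were lower in the same samples by the values given below; their part in this fall was not tested. Receptor chaperones and genes of the unfolded protein response stayed near equal, 0 higher and 2 lower of 15 (1 lower without any one pool) with a median of -0.00 log2 (0.30 after array centring). Of 20 genes of receptor choice none was higher and 3 were lower (1 without pool 3), led by Lbr, a nuclear envelope protein. Lbr read 9.96, 9.97, 10.14 and 10.22 against 11.83, 12.95, 12.21 and 13.45. Its GFP- values had the pool order of the summed neutrophil and monocyte markers (16.27, 17.96, 17.08 and 18.38), whose part in this fall was not tested. The median of the receptor choice list was -0.04, and 0.26 after array centring. Among all genes 10.9% were lower, and the lower counts of the shut-off, chaperone and receptor choice lists lie near that share.

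Most synaptic and axonal genes were not called with the values as deposited. Of 25 presynaptic genes 4 were higher, against 6.26% of all genes, and none lower (3 and 0 without pool 3), with a median of 0.30 log2. The count of higher genes was 16 after array centring, 8 after quantile normalization and 3 after centring on the receptors. Syt4, a synaptotagmin, read 12.26, 12.86, 12.07 and 12.97 log2 against 11.25, 11.37, 11.55 and 11.61, and the groups did not overlap (1.09 ± 0.43). Syn2, a synapsin, was higher by 0.69 ± 0.09. Without pool 1 or pool 4 2 of the 25 were called, near the share of all genes. Of 26 axon guidance genes 7 were higher and 2 lower, against 6.26% and 10.9% of all genes, with the same counts without pool 3. The plexin Plxna3 was higher by 0.86 ± 0.22 and the protocadherin Pcdh17 by 0.79 ± 0.39, each in all 4 pools although the ranges of the sorted groups overlap. Sema3a, a repulsive semaphorin, was lower on every pool's GFP+ array, at 7.60, 7.52, 7.22 and 6.50 log2 against 8.44, 8.50, 8.06 and 7.72.

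Potassium channel genes were called higher in 7 and lower in 2 of 39 cases, against 6.26% and 10.9% of all genes. The counts were 4 and 2 without pool 3 and 4 and 1 without pool 4. In 22 of the 39 both sorted groups lay at the background, among them 4 of the called genes. Among 23 sodium, calcium and HCN channel genes 2, Scn4b and Scn8a, were called higher, near the 6.26% of all genes, and none lower. Scn4b, an accessory subunit of sodium channels, read 15.26, 14.95, 14.50 and 15.22 log2 against 14.29, 13.66, 13.76 and 13.99, with no overlap (1.06 ± 0.26, limma adjusted p = 0.0025). Scn8a, a pore-forming sodium channel subunit, read 9.41, 8.99, 8.80 and 8.96 against 8.90, 7.90, 7.71 and 8.13, where pool 1 of the GFP- cells reaches into the GFP+ range.

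Few genes of ciliary transport and of motile cilia were called with the values as deposited. Of 27 genes of intraflagellar transport and the BBSome 4 were higher, against 6.26% of all genes, and none lower. Without pool 3 the count was 2, and 1 without each of the other pools, near the share of all genes. It was 0 after centring on the receptors, 18 after array centring and 10 after quantile normalization. With the last 2 scalings 7791 and 2587 of all 19505 genes were higher. Dync2h1, the motor chain that returns cargo to the cell body, was highest of the list at 0.74 ± 0.21; its call was lost without pool 1 (adjusted p = 0.0716). Of 16 genes known from ciliated respiratory cells 4 were higher and none lower, with 2 higher without pool 1 or pool 4 and 1 without pool 3. The count was 12 after array centring, 11 after quantile normalization and 1 after centring on the receptors. Hydin, an axonemal protein, read 9.53, 9.78, 10.48 and 9.79 log2 against 9.31, 8.86, 8.93 and 9.04. The GFP+ array of pool 3 was the highest, and without it the call was lost (0.63 log2, adjusted p = 0.0754). Dnah11, a dynein heavy chain, remained called without pool 3 (0.72 log2, adjusted p = 0.0226).

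Immediate early genes, which encode factors transcribed within minutes of a stimulus in many cell types, were lower in GFP+ cells. Of 23 genes 16 were lower and none higher, with a median of -1.86 log2, and 15 were lower without pool 3. Fos read 8.70, 7.73, 7.86 and 9.13 log2 on GFP+ arrays against 14.11, 15.02, 13.98 and 15.28 on GFP- arrays, 75.6-fold lower (limma adjusted p = 3.72e-08). Egr2 read 6.27, 6.75, 6.95 and 7.20 against 13.10, 13.94, 12.60 and 13.25, 86.3-fold lower. For both genes the groups stood several log2 units apart in every pool. Zfp36, which destabilizes cytokine mRNAs, was at least 66.0-fold lower, and Btg2, an antiproliferative gene, at least 38.6-fold lower. By contrast Dusp1, a phosphatase of MAP kinases, read 17.11, 16.97, 16.47 and 17.27 against 17.40, 17.82, 17.32 and 17.86, and its call was lost without pool 3 (adjusted p = 0.0507). Jun was lower by little, at -0.79 ± 0.22, and the neuronal activity genes Arc and Npas4 lay at the background in both sorted groups. Leukocyte genes moved with this list: the 21 markers of mature neutrophils and monocytes summed to 10.59 to 12.12 log2 on the GFP+ arrays and to 16.27, 17.96, 17.08 and 18.38 on the GFP- arrays. Like that sum, the GFP- signal of Fos and Btg2 was higher in pools 2 and 4 than in pools 1 and 3, and the part of leukocytes in these falls was not tested.

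The core letters of the cyclic AMP response element stood before many of these genes: 13 of the 18 immediate early genes with a promoter in the table (72.2%) held TGACG on either strand within 250 bases of the start, against 23.4% of all array genes. The whole element, TGACGTCA, which contains the core, was found for Btg2 and Dusp1, 11.1% of the list against 2.27% of all. The motif was chosen after values were seen, and a match is a description of the letters, not a bound site. The windows of Fos and Btg2 are shown as examples of the core and of the whole element (RefSeq, GRCm38.p6). Fos lies at chr12:85473640-85473889 on the plus strand, with cores that begin 129 and 66 bases before the start, in capitals. Btg2 lies at chr1:134079156-134079405 on the minus strand, with the whole element in capitals, beginning 166 bases before the start.
Fos: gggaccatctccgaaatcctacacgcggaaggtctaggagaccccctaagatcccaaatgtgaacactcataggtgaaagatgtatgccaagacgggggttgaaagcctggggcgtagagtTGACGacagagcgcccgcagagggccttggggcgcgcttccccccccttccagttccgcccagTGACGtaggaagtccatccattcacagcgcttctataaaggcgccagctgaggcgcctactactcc
Btg2: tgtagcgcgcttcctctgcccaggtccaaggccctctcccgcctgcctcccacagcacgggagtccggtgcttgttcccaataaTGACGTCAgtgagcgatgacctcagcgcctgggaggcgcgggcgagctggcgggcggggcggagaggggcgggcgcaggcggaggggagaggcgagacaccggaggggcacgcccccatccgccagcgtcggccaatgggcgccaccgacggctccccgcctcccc

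The largest falls of all belonged to genes of neutrophils, the granule-bearing phagocytes of the blood. Of 19 measured neutrophil granule genes 16 were lower and none higher, with a median of -7.35 log2, and the counts were the same without pool 3. All 21 genes of mature neutrophils and monocytes were lower, with a median of -5.75 log2, also without pool 3. Ngp, a neutrophil granule protein, read 8.22, 8.62, 6.14 and 10.32 log2 on GFP+ arrays against 17.53, 18.56, 18.02 and 18.82 on GFP- arrays, 962-fold lower. Lcn2, which binds bacterial siderophores, read 8.66, 8.66, 5.78 and 11.22 against 17.62, 18.62, 18.06 and 18.69. In both genes the GFP+ array of pool 3 was lowest and that of pool 4 highest. Retnlg read 7.46, 7.74, 4.75 and 9.37 in GFP+ cells, in the same order of pools. S100a8 and S100a9, which pair as calprotectin, stood at 7.33, 7.58, 6.13 and 8.38 and at 6.65, 7.32, 6.13 and 7.91 on the GFP+ arrays, and between 14.86 and 17.05 on the GFP- arrays.

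The collagenase Mmp8 (at least 387-fold), the gelatinase Mmp9 (at least 82.1-fold), lactoferrin, Ltf (at least 189-fold), haptoglobin, Hp (at least 118-fold), and the chitinase-like Chil3 (at least 460-fold) were lower by similar orders. Spi1, which encodes the myeloid transcription factor PU.1, read 8.13, 7.62, 8.02 and 10.36 log2 against 14.98, 16.61, 15.82 and 16.94, 188-fold lower (limma adjusted p = 8.39e-08). Surface genes of myeloid cells followed, with Itgam at -7.26 ± 0.92 and the cytokine receptor Csf3r at -6.46 ± 1.05, and so did Il1b, an inflammatory cytokine, at -6.84 ± 1.15. Anxa1 (at least 266-fold), Ly6c2 (at least 210-fold), Ly6c1 (at least 160-fold) and Adgrg6 (at least 117-fold), an adhesion receptor, complete the rule's largest falls. Primary granule genes of neutrophil precursors were less even. Mpo, myeloperoxidase, read 10.08, 9.55, 9.97 and 13.27 in GFP- cells and Elane, neutrophil elastase, 9.30, 8.71, 8.48 and 12.58, with pool 4 far above the other pools in both. GFP+ arrays were at 5.93 to 6.56 for Mpo and 5.27 to 5.95 for Elane.

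A PU.1 motif (GAGGAAGT, either strand) lay within 250 bases before the start of 6 of the 17 neutrophil granule genes with a promoter in the table (35.3%): Elane, Itgb2l, Mmp8, Mpo, Prtn3 and S100a8. It was found for 2.63% of all array genes, for 5.69% of the lower genes other than receptors and for 11.7% of those more than 16-fold lower. On the list of mature neutrophil and monocyte genes it was found for 2 of 18 with a promoter (11.1%). The motif was picked after values were seen, since Spi1 was among the falls, and the matches are letters only. The windows of S100a8 and Mmp8, from the largest falls, are shown with the match in capitals, here on the opposite strand (ACTTCCTC). They are from RefSeq, GRCm38.p6: S100a8 at chr3:90668821-90669070, plus strand, with the match beginning 172 bases before the start, and Mmp8 at chr9:7558179-7558428, plus strand, 221 bases before it.
S100a8: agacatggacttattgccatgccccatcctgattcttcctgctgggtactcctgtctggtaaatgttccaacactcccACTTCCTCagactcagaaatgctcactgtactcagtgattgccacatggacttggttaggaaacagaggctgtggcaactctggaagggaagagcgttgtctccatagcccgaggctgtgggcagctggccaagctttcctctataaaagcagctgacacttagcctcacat
Mmp8: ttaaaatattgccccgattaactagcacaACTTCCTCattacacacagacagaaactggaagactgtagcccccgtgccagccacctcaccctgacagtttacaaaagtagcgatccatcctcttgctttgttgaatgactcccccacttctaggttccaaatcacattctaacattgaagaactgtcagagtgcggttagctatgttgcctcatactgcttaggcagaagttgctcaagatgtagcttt

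Genes of other blood lineages were lower in GFP+ cells too, in larger shares than the 10.9% of all genes. 9 of 18 macrophage genes were lower and none higher (8 without pool 3), with Csf1r, the receptor for macrophage growth factor, at least 8.51-fold lower and the protease Ctss 13.4-fold lower. The lysosomal genes Ctsb (16.2 log2 in both groups) and Lgmn, which many cells make, did not pass. 8 of 12 genes of MHC class II presentation were lower (7 without pool 3), and H2-Ab1 was even across pools, at 6.35 to 6.73 log2 in GFP+ cells and 11.27 to 11.92 in GFP- cells. Of 18 B cell genes 11 were lower and 1 higher, also without pool 3, with Cd79a, of the B cell receptor, at least 13.8-fold lower. For 6 of these called genes both sorted groups lay at the background. The B cell list includes Ebf1, which olfactory neurons also express, and it read 17.11 and 16.95 log2 on average. Of 16 genes of T and NK cells 9 were lower, also without pool 3, with Il7r at least 8.19-fold lower. Of 16 erythroid genes 11 were lower, 9 without pool 3 and 5 without pool 4. Car1, an erythroid carbonic anhydrase, read 8.70, 10.63, 10.87 and 12.68 in GFP- cells, again highest in pool 4, and Kit, a receptor of mast cells and of progenitors, was at least 13.9-fold lower.

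**Figure D3:**
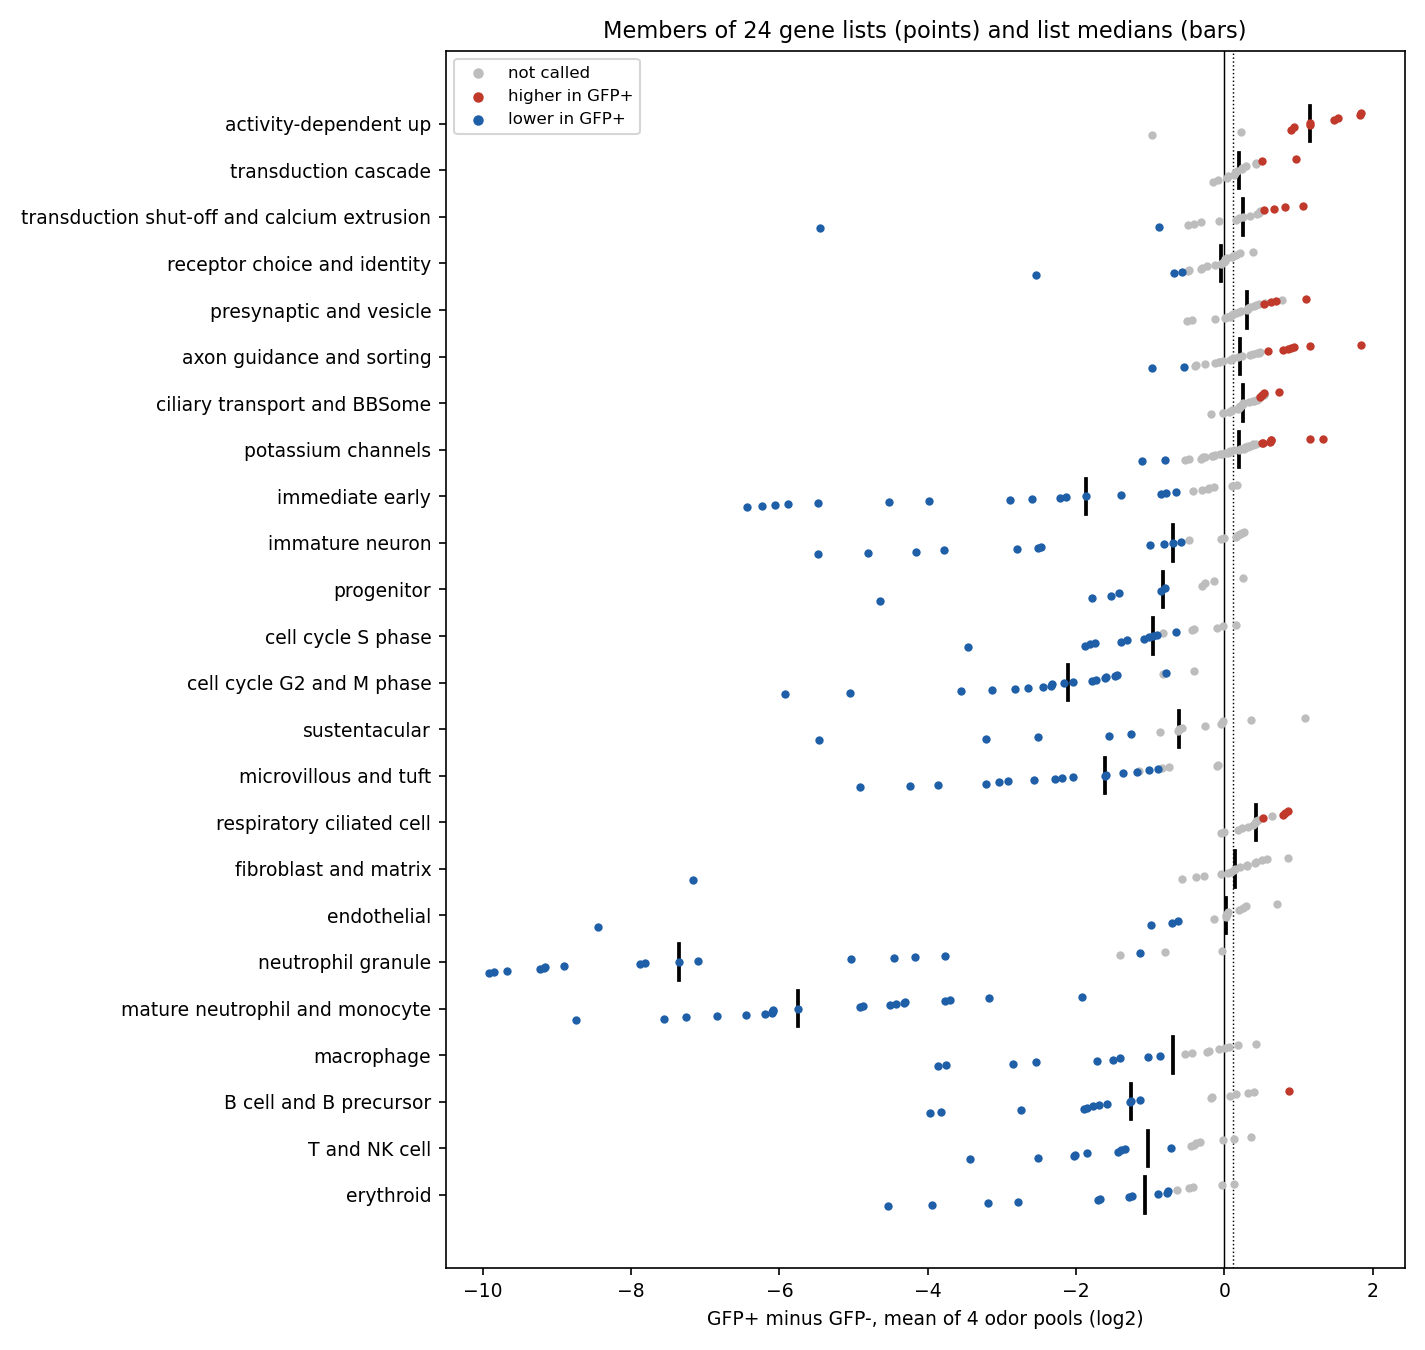
Mean difference over 4 odor pools in log2 units (x axis) for members of gene lists (points, coloured by limma call), with the list median as a bar, a solid line at 0 and a dotted line at the median of all genes, 0.11. Neutrophil lists lie farthest to the left at medians of -7.35 and -5.75, and the activity-dependent list farthest to the right at 1.16.

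Markers of young neurons and of dividing cells were lower in GFP+ cells. Of 19 immature neuron genes 11 were lower and none higher (10 without pool 3), with a median of -0.69 log2. Gap43, the growth-associated protein, read 7.98 to 8.20 log2 on GFP+ arrays and 11.18, 10.43, 11.12 and 10.68 on GFP- arrays, 6.92-fold lower (limma adjusted p = 1.25e-06). Gng8, a G protein subunit of immature olfactory neurons, was at least 23.3-fold lower. Gnas, the stimulatory G protein subunit that precedes Gnal in development, stood at 6.53 to 7.43 in GFP+ and 10.58 to 11.31 in GFP- cells. Stmn1, which regulates microtubules, was 5.56-fold lower with an SD of 0.25 log2. Dcx and Ncam1, which are also on the list, did not pass (0.18 ± 0.16 and 0.24 ± 0.14), but were called higher after array centring (0.49 and 0.54), Ncam1 also with values floored at the background. Cxcr4, a chemokine receptor found on both young neurons and leukocytes, was at least 39.3-fold lower. Of 14 genes of the mature neuron list 2 were higher and 2 lower, against 6.26% and 10.9% of all genes, with a median of 0.18 log2. The counts were the same without pool 3, and 1 and 2 without each of the other pools. After array centring 8 were higher and 2 lower, while 7791 of all 19505 genes were then higher. Calb2, the calcium-binding protein calretinin, had the largest fall of that list, at 12.61, 12.49, 11.58 and 11.50 against 17.09, 16.34, 16.46 and 16.55.

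Progenitor genes were lower in 6 of 10 cases and higher in none, with the same counts without pool 3. For 2 of the 6 both sorted groups lay at the background. Sox2, a stem cell factor, read 5.42 to 5.79 log2 in GFP+ cells and 6.59 to 7.56 in GFP- cells. Of 9 horizontal basal cell genes 1 was lower, near the 10.9% of all genes, and this call was lost without pool 1 or pool 2. The called gene lay at the background in both sorted groups. The same held for 8 of the 9 in all, Krt5, Krt14 and Trp63 among them. Genes of the S phase were lower in 11 of 17 cases (9 without pool 3 and 7 without pool 4) and genes of G2 and mitosis in 18 of 20 (18 without pool 3). Mki67, a marker of proliferating cells, read 5.15, 5.02, 5.70 and 6.02 against 9.63, 11.67, 11.24 and 13.08. Ube2c, a mitotic ubiquitin enzyme, read 7.86, 8.87, 9.40 and 11.36 in GFP- cells, and Rrm2, which makes deoxynucleotides, 8.94, 10.33, 9.66 and 11.67. In all 3 genes pool 4 was highest and pool 1 lowest, as for the erythroid gene Car1. Erythroid markers summed to 13.38 to 13.69 log2 in GFP+ cells and to 14.03, 14.77, 14.27 and 15.62 in GFP- cells, and their part in the cell cycle result was not tested.

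Supporting-cell genes depended on pool 3. Of 15 sustentacular genes 5 were lower and none higher with all pools, and 9 were lower without pool 3. The list's median was -1.24, -0.72, 0.30 and -1.37 log2 in pools 1 to 4, so that pool 3 alone was above 0, and it moved from -0.61 to -1.28 without that pool. The summed signal of the list was 13.71, 14.14, 17.02 and 14.48 on the GFP+ arrays and 15.15, 15.17, 15.67 and 15.87 on the GFP- arrays. Cyp2g1, an olfactory cytochrome of these cells, read 13.07, 13.32, 16.34 and 13.60 against 14.49, 14.38, 14.97 and 14.97. It did not pass with all pools (-0.62 ± 1.33) and did without pool 3 (-1.28, limma adjusted p = 0.0206). Cyp2a5 behaved alike, with 15.17 on the GFP+ array of pool 3 and 10.99 to 12.04 on the others, and -1.39 without that pool. Muc2, a mucin, was 3.43 log2 higher in GFP+ cells of pool 3 and at most 0.62 in the other pools. Krt8 and Krt18, keratins of simple epithelia, were lower in every pool, Krt18 by 9.29-fold. Slc2a3, a glucose transporter on this list, read 8.83, 10.80, 8.91 and 11.42 in GFP- cells, highest in pools 2 and 4 as the neutrophil sums were, and their part in its fall was not tested.

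Cytochrome P450 genes as a whole were called lower in 3 of 21 cases, near the 10.9% of all genes. Without pool 3, 5 were lower and 1 higher, and the lower count was 1 without pool 1 or pool 2 and 0 without pool 4. Their median was -0.20 log2 with all pools, 0.02 without pool 3 and 0.10 after array centring. Bowman gland and secretory genes were lower in 6 of 26 and higher in 1, with the same counts without pool 3 and a median of 0.00 log2 (-0.21 without pool 3 and 0.31 after array centring). Sox9, a gland and progenitor transcription factor, read 6.53, 6.99, 6.34 and 7.60 against 10.78, 11.99, 10.88 and 11.39 (-4.40 ± 0.51). The odorant-binding protein gene Obp2a varied with the pool, at 10.96, 11.25, 12.61 and 14.07 against 11.48, 11.92, 11.90 and 14.17, and did not pass. Microvillous and tuft cell genes were lower in 16 of 21 and higher in none, also without pool 3, with a median of -1.60 log2. Trpm5, the channel of taste-like transduction, lay under the background on each GFP+ array and read 10.17, 11.59, 10.59 and 10.30 in GFP- cells. Pou2f3, the tuft cell regulator, was 7.59-fold lower, and Foxi1, of ionocyte-like microvillous cells, 4.86-fold lower.

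**Figure D4:**
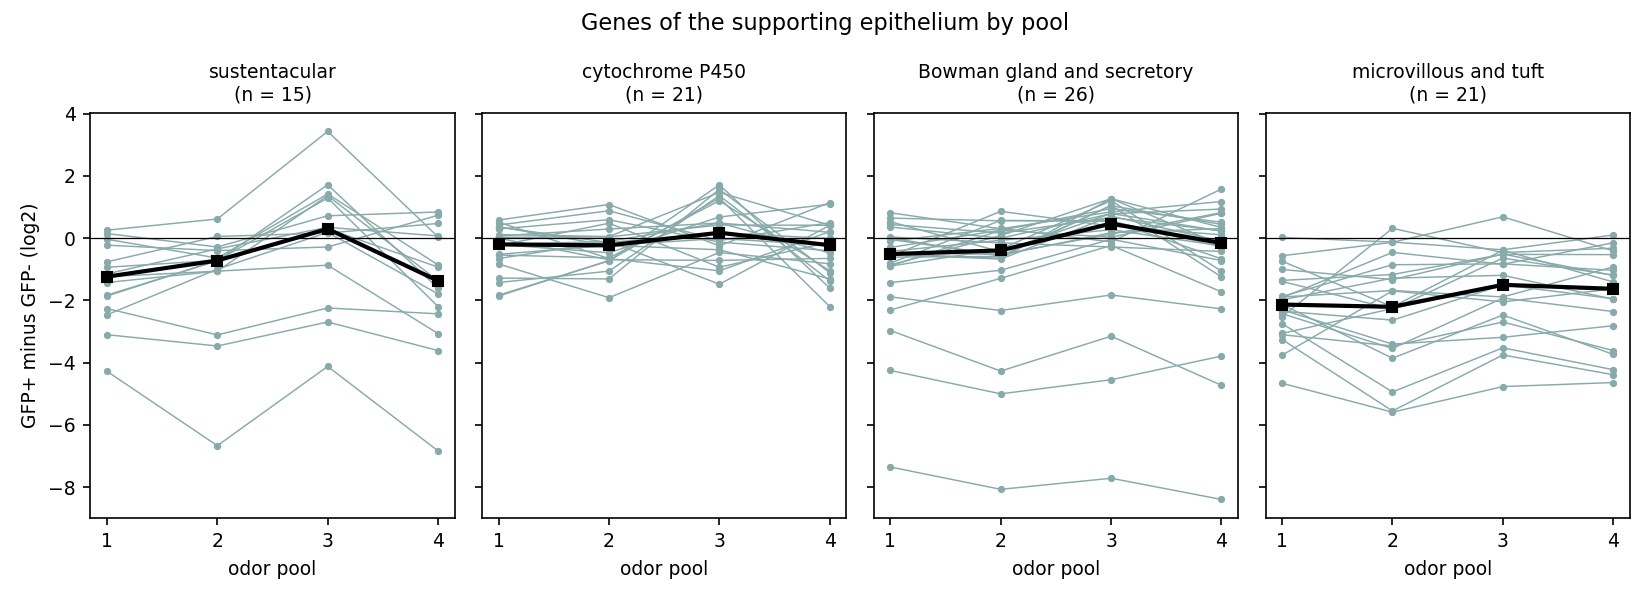
Difference between GFP+ and GFP- arrays in log2 units (y axis) for genes of 4 supporting-cell lists in each odor pool (x axis); thin lines are genes and the thick line is the list median. The sustentacular median is 0.30 in pool 3 and between -1.37 and -0.72 in the other pools, while the microvillous median stays below 0 in each pool.

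Cells of the connective tissue and vessels gave little signal in either sorted group. In 13 of 17 fibroblast genes and 11 of 13 endothelial genes both groups lay at the background. Of the fibroblast list 1 gene was lower (2 without pool 1): Fn1, fibronectin, was at least 70.6-fold lower with 11.15, 12.98, 11.04 and 14.20 log2 in GFP- cells, whereas the collagen gene Col1a1 did not pass (0.30 ± 0.53). Of the 4 endothelial genes called lower 3 lay at the background in both sorted groups, and the other was Ly6c1, which monocytes also express. The endothelial cadherin Cdh5 lay at the background. Without pool 3, 2 endothelial genes were lower and 1 higher. Of 13 glial genes 2 were lower, near the 10.9% of all genes. Among them was Apoe, also a macrophage gene, at 11.86, 10.65, 13.85 and 14.56 against 14.63, 15.18, 15.51 and 15.29. Its call was lost without pool 2 (-1.72 log2, limma adjusted p = 0.0527).

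Metabolic lists differed in how many members were called, beside 6.26% of all genes called higher and 10.9% lower. Of 57 nuclear genes of the respiratory chain 1 was higher (0 without pool 3) and none lower, with a median of 0.14 log2 against 0.11 over all genes. After array centring 33 were called higher, as were 7791 of all 19505 genes. Of 17 glycolytic genes 5 were lower and none higher (3 without pool 3), with Ldha, a lactate dehydrogenase, 10.1-fold lower and Gapdh at 17.4 log2 in both groups. Fatty acid and lipid genes were lower in 12 of 31 and higher in 1 (9 and 1 without pool 3, 7 and 0 without pool 4). For 3 of the called lipid genes both sorted groups lay at the background. The list's median of -0.18 turned to 0.13 after array centring. Plin2, a coat protein of lipid droplets, differed by -4.08 ± 1.07 log2, and Cpt1a, which admits fatty acids to mitochondria, read 8.27, 9.09, 8.86 and 10.33 in GFP- cells against 5.62 to 6.59 in GFP+ cells. Catalase, Cat, was 12.3-fold lower, and Gpx1, glutathione peroxidase, 23.0-fold lower with GFP- levels of 14.26, 15.77, 14.79 and 16.06. Those GFP- levels were again higher in pools 2 and 4, as were the leukocyte sums, and the part of leukocytes was not tested.

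The same differences were formed in the 4 vehicle pools, and the test of odor against vehicle asks whether octanoic acid changed them. limma called 0 of 19505 genes (0% of those tested), and 871 (4.47%) had an unadjusted p under 0.05. The smallest adjusted p was 0.940. The 5 genes with the smallest p were Micall2, Ctnna3, Aadacl4fm4, Scd1 and Olfr243, of which the first 3 lay at the background in both sorted groups of the odor pools. Scd1, a fatty acid desaturase, read 6.29, 6.44, 5.33 and 6.24 log2 in GFP+ and 9.27, 9.85, 8.80 and 9.14 in GFP- cells of odor pools. Its difference was -3.19 ± 0.29 with octanoic acid and -1.88 ± 0.54 with vehicle, an odor minus vehicle value of -1.31 (95% interval -1.94 to -0.68, unadjusted p = 8e-04 by limma).

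For S100a5 the odor minus vehicle value was 0.21 log2 with an interval from -0.39 to 0.82, and for Fxyd2 it was -0.14 with an interval from -0.98 to 0.71. Lrrc3b gave -0.07 (-0.60 to 0.46) and Kcnn2 0.06 (-0.41 to 0.54), the narrowest of these. For Fos it was -0.36 (-1.16 to 0.45), and for Cpt1a -1.01 (-2.05 to 0.03). Among the receptors with the largest rises Olfr101 gave 0.76 (0.16 to 1.36) and Olfr481 -0.82 (-1.68 to 0.03), and neither passed after adjustment. A missed threshold does not show that the treatments acted alike.

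**Figure D5:**
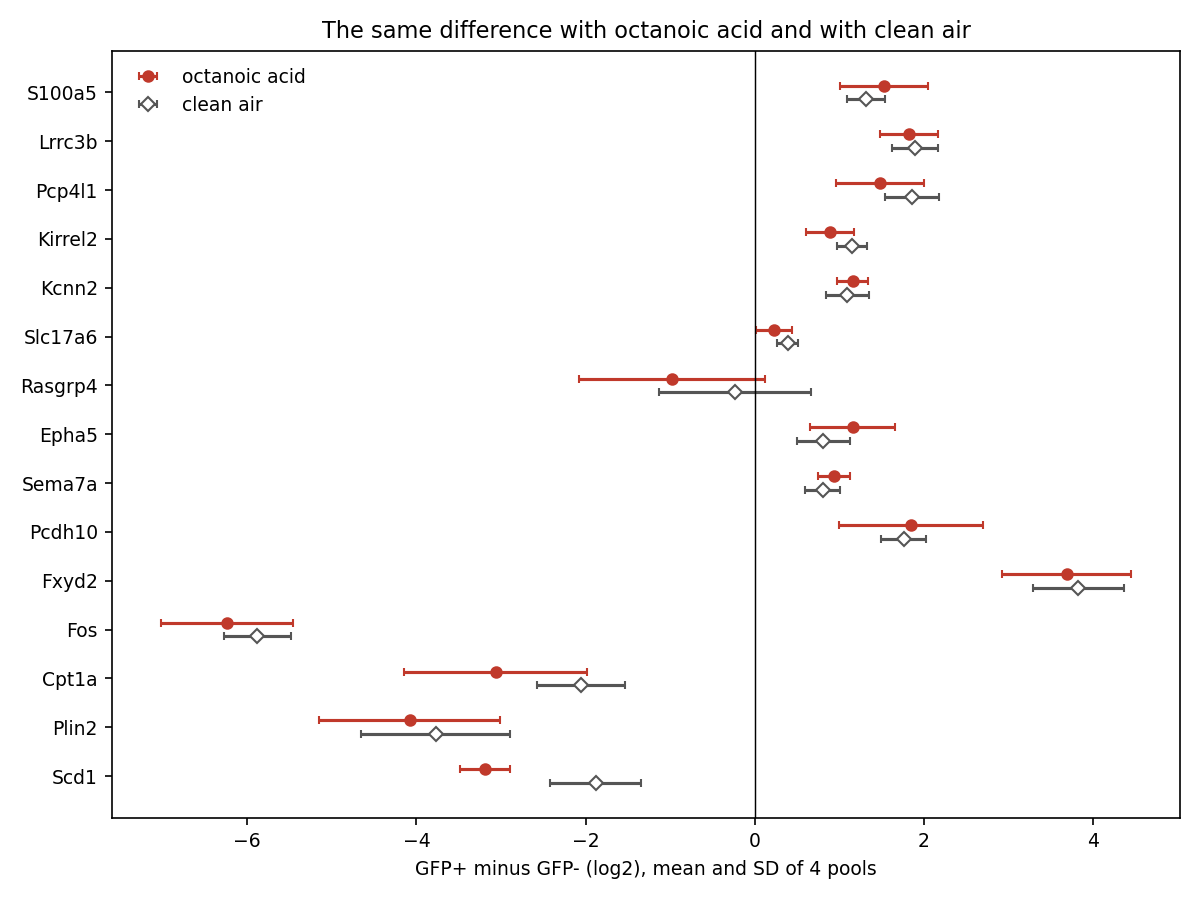
Difference between GFP+ and GFP- cells in log2 units (x axis, mean and SD of 4 pools) with octanoic acid (filled circles) and with vehicle air (open diamonds) for activity-dependent genes, Fxyd2, Fos and 3 lipid genes. The bars overlap for each gene except Scd1, at -3.19 against -1.88, which did not pass after adjustment over all genes.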

How the data were processed

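Gene expression in sorted cells of the mouse olfactory mucosa was measured on 16 Clariom S arrays, of which the 8 odor arrays are described and the 8 vehicle arrays share the estimate of the spread. The authors deposited log2 signals, a value for each probe set on each array, produced with Affymetrix Expression Console per the submitters' processing notes; its version and summary method are not given in the sources used here, and that they are log2 was judged from their range. Scanner files were not used here.

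Of 28846 probe sets 6640 were controls, 2634 had no name and 19572 had 1 symbol. The brightest probe set of a gene was kept, which gave 19505 genes. Within-pool differences (GFP+ minus GFP-, paired by the replicate number in the titles; pools of 3 from 24 mice leave each pool to serve 2 of the 16 arrays) were fitted with limma 3.58.1 in R 4.3.3 (lmFit, eBayes, two-sided) and tested against 0 and between treatments, with Benjamini-Hochberg adjustment at 0.05. The deviations of the sorted samples of an odor pool correlated at 0.389, -0.238, 0.357 and 0.0972. Pools are separate animals, so p-values measure the spread between pools. The members and gene lists were chosen with earlier results of these data known. Named genes were the 15 largest rises and falls and the 10 largest receptor rises and falls (called, same sign in 4 pools, brighter group above the 95th percentile of the controls, no gene models), list members, S100a5 and the 5 smallest p between treatments. Receptors brightest in GFP+ cells, part of the original rule, are not named, since levels of different probes are not comparable. Alternatives covered scaling, filters, background floor, probe set averaging, trend and robust priors, unpaired fits and each pool left out. The fit was tested on simulated data. Promoters came from a RefSeq table for GRCm38.p6, used over the 250 bases before the start; gene positions are not given otherwise.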

Additional observations from a re-analysis of the deposited data

Results flagged for a closer look

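In 13 of 246 results checked (single genes and list medians), 1 odor pool stood apart from the other 3 by more than the 95% limit of Dixon's test, which chance alone would give in about 1 of 20 groups; 6 of the 13 concern pool 3. The figure after each name is the gap as a share of the range. In pool 3 these were Cyp2g1 (0.869, 1.37 log2 against -1.42 to -1.06), Muc2 (0.831, 3.43 against 0.04 to 0.62), Col1a1 (0.842, 1.09 against -0.04 to 0.14), and the medians of the cytochrome P450 list (0.923, 0.18 against -0.23 to -0.20), the ensheathing glia list (0.885, 0.31 against -0.24 to -0.18) and the receptor choice list (0.830, -0.38 against -0.05 to 0.01).

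In pool 4 the primary granule genes Mpo (0.987, -7.35 log2 against -3.52 to -3.47), Elane (0.930, -6.62 against -3.45 to -3.21) and Ctsg (0.926, -3.93 against -0.66 to -0.40) were lower than elsewhere, and Notch2 as well (0.832, -3.06 against -1.24 to -0.87). For all 4 genes it was the GFP- array of pool 4 that was high. Pool 2 stood apart for Olfr481 (0.900, 5.97 against 4.07 to 4.26), Trpm5 (0.864, -5.59 against -4.77 to -4.64) and the median of the receptor chaperone list (0.904, 0.19 against -0.04 to -0.02).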

How the results depend on the processing

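Of the 160 named genes called with all pools none changed sign under an alternative run, and of the 30 not called 10 did. The count of higher genes, 1221, was 7791 after array median centring, 2587 after quantile normalization, 689 after receptor centring, 587 with genes above the 95th percentile of the controls, 693 floored at the background, 688 with odor pools only, and 621 to 1310 with 1 odor pool left out. The count of lower genes, 2126, was 757 with the 95th percentile filter, 1395 floored, and 1666 to 2041 with 1 pool left out. With the 95th percentile filter 187 receptors were higher and 136 lower. Higher list members, 45, numbered 246, 87 and 25 under the 3 scalings in the order above, 26 with odor pools only and 23 to 44 with 1 pool left out; lower members, 238, numbered 85 with that filter and 150 floored. Between treatments 1 gene (Zfp874a) was called when floored, adjusted p = 0.0380, and 0 under the other alternatives. Without the replicate block, that is with the pairing of the sorted samples ignored, 975 genes were higher and 2010 lower. Odor and vehicle pools share replicate numbers as labels only (correlations of 0.100 to 0.237); that block called 0 genes between treatments, with a smallest adjusted p of 0.781. The causes of these shifts were not tested. Signals near the background limit what small differences can show.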

Other observations

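Histone genes were lower in GFP+ cells in 38 of 62 cases and higher in none (30 without pool 3), against 10.9% and 6.26% of all genes. Their median was -0.98 log2. The list's median was -0.33, -0.65, -1.24 and -2.06 in pools 1 to 4, the same pool having the largest fall as for the cell cycle genes Mki67 and Ube2c. H2ac15 was lower by 3.90 ± 1.48 on the log2 scale. Histone genes have near-identical copies that probes may not separate.

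Cytosolic ribosomal protein genes were lower in 33 of 59 cases and higher in none, also without pool 3, against 10.9% and 6.26% of all genes. Their median was -0.66 log2. Under array centring 22 were lower and 4 higher, and under receptor centring 14 were lower. Rps9 fell by 1.91 on the log2 scale. Mitochondrial ribosomal protein genes were higher in 2 of 76 cases (0 without pool 3) and lower in none, with a median of 0.09.

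Of 6 interferon-induced transmembrane genes 4 were lower and none higher, also without pool 3, with a median of -4.15 log2. Ifitm2 read 6.13, 7.00, 8.07 and 7.89 log2 on GFP+ arrays against 13.26, 14.36, 13.92 and 14.58 on GFP- arrays, and Ifitm6 was at least 143-fold lower. The GFP- values of Ifitm2 had the pool order of the summed neutrophil and monocyte markers (16.27, 17.96, 17.08 and 18.38), whose part in these falls was not tested. These families were picked after values were seen.

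Trace amine-associated receptors, a second family of olfactory receptors, were higher in 6 and lower in 6 of 15 cases, and in 5 and 3 without pool 3. Of 20 clustered protocadherin genes 3 were higher and none lower, 5 were higher without pool 3, and 16 were higher under array centring.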
